A study of Homo sapiens with 6 samples.

Results

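Amino acid transporters are membrane proteins of the solute carrier (SLC) families, and 34 of their genes were followed in the RNA-seq of SiHa PR cells with and without P4HA3 overexpression. The genes were fixed by name (families SLC1, SLC6, SLC7, SLC36, SLC38 and SLC43, with SLC3A1 and SLC16A10), and each symbol matched 1 of the 60664 Ensembl identifiers in the count table. SiHa cells are a long-used line from a squamous carcinoma of the human cervix, and PR marks the parental cells of the study, as opposed to its highly lymph node metastatic derivative. The control group had 3 libraries labelled only SiHa PR, which the study's heatmap of these libraries labels Vector, and the other group had 3 libraries of SiHa PR P4HA3, cells carrying a lentiviral expression construct for P4HA3. P4HA3 encodes an alpha subunit of prolyl 4-hydroxylase, the enzyme that hydroxylates proline in procollagen. No label says that replicates came from separate cultures, so p-values measure only the spread between these samples. The study concerned P4HA3 in resistance to ferroptosis, a form of cell death by lipid peroxidation against which cystine import protects.

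Cells obtain amino acids by sodium-driven uptake, by exchange across the membrane and by facilitated diffusion. Uptake carriers such as SLC38A2 load the cell with glutamine and other small neutral amino acids, and exchangers such as SLC7A5, paired with the heavy chain SLC3A2, spend these to import leucine and other large neutral amino acids. Carriers on lysosomes return the products of protein breakdown and inform the kinase complex mTORC1 of the supply. Many of these genes are induced when amino acids run short, through the kinase GCN2 and the transcription factor ATF4.

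P4HA3 itself gave 86, 62 and 93 counts in control replicates 1 to 3 and 45042, 44775 and 49097 counts with overexpression, which matches the labels. Total counts lay between 21773488 and 24939948 per library, so that a level of 1 CPM (counts scaled to library size, normalized by TMM) stood for 21.3 to 25.4 counts. The epithelial genes KRT7, KRT8, KRT17 and KRT18 were abundant, and the summed CPM of the epithelial list was 11860 to 13500 in control cells and 11100 to 12660 with overexpression. Of the 9 tested genes of that list, 5 were lower with overexpression and 0 higher, beside 11.4% and 9.36% of all tested genes, and with trends on GC content and transcript length removed 3 were lower and 1, KRT7, was higher, with the median log2 fold change going from -0.267 to -0.075. The squamous markers KRT5 and TP63 had at most 4 and 13 counts. Smooth muscle markers, checked because the deposited growth protocol describes that tissue, summed to 0.821 to 2.74 CPM in control cells and 0.8 to 3.08 CPM with overexpression. Markers of fibroblasts, endothelium and leukocytes summed to 125.1 to 125.4 CPM in control cells and to 93.9 to 121.3 CPM with overexpression. The matrix genes COL1A1 (means of 61.7 and 53.3 CPM) and DCN (27.5 and 25.2 CPM) were the largest, and CD3E was at 0 throughout. Of the 5 tested, 1 was lower and 0 were higher, beside 11.4% and 9.36% of all tested genes. The lower gene was PECAM1, at -1.03 on the log2 scale (adjusted p = 0.00494 by edgeR). With the GC and length trends removed, 2 were lower and 0 higher. The part of these markers in the differences below was not tested, and fewer cells of a type cannot be told apart from less RNA per cell.

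With P4HA3 overexpression most of the 25 tested transporters moved little in the fit without correction for GC content. The cystine importer SLC7A11 is outside this set and is given below. SLC38A1, SLC7A6 and SLC7A1, all well expressed, rose by 1.13 to 1.27-fold, and SLC7A2, SLC38A3 and SLC6A15, all of low level, fell. Among the 25 transporters with enough counts to be tested, these 3 higher and 3 lower genes, each 12%, compare with 9.36% of all 15130 tested genes called higher and 11.4% called lower, at an adjusted p under 0.05 (edgeR, quasi-likelihood, Benjamini-Hochberg over all genes). SLC6A15 entered the test only through its control libraries, where it had to be the higher, so its call adds nothing to the count of lower genes. In either direction, 6 of 25 transporters were called beside 20.8% of all genes. The groups did not overlap for 14 of the 25 (6 higher, 8 lower), which is 56% beside 40.1% of all tested genes, 19.7% higher and 20.4% lower. SLC6A15 is among the 8 lower and adds nothing to that count either. The median log2 fold change of the 25 was -0.051 beside 0.006 over all genes, and the median size of the change was 0.153 beside 0.192. Apart from SLC16A10, the 18 tested transporters without a call had log2 fold changes between -0.29 and 0.22. With the GC and length trends removed, 4 were higher and 5 lower, beside 10.6% and 7.94% of all genes. SLC6A15 is 1 of the 5 and adds nothing to that count. SLC7A5, the most abundant transporter, was then called higher at 0.32 (adjusted p = 0.00117 by edgeR).

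**Figure D1:**
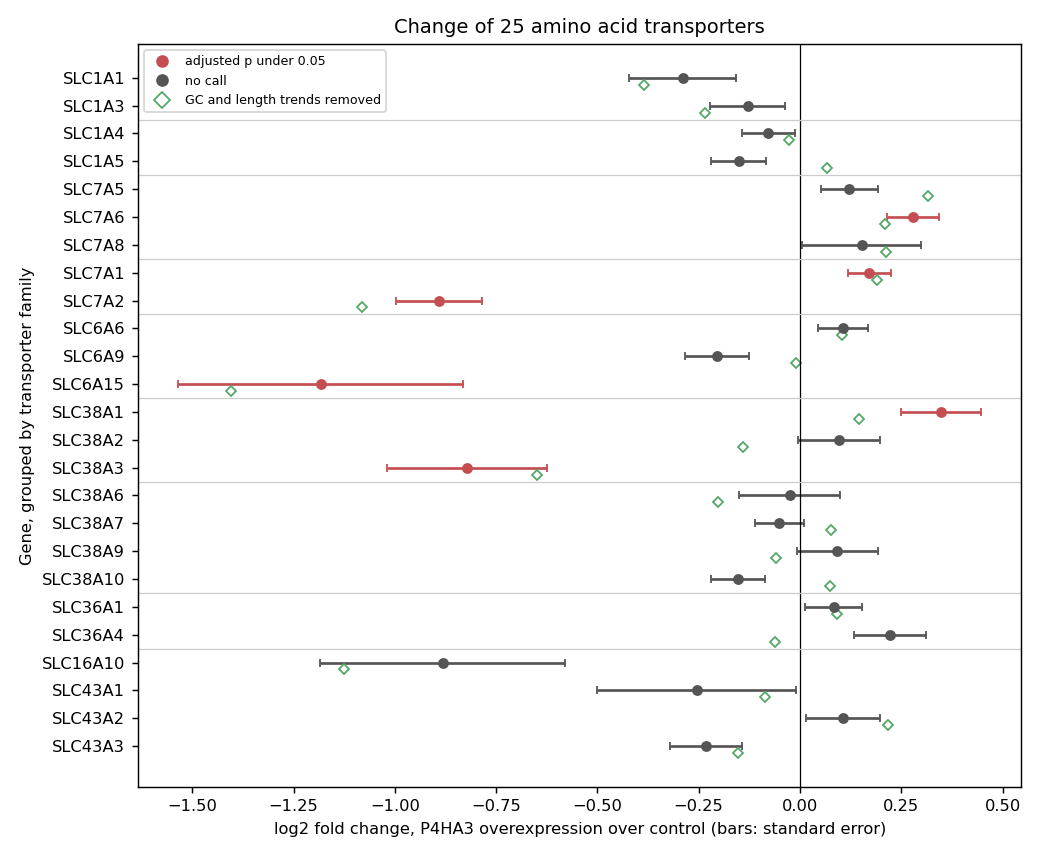
The log2 fold change of each tested transporter (x axis, P4HA3 overexpression over control, with the standard error as bar) is plotted by family from the acidic carriers at the top to the facilitative carriers at the bottom, and open diamonds give the value with trends on GC content and transcript length removed. The 6 called genes are in red, 3 on each side of 0, and SLC6A15 at -1.18 lies farthest from it.

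The order of the transporters by level, taken as CPM per kilobase of transcript so that genes can be compared, was led by SLC7A5, SLC1A5, SLC38A2, SLC38A10 and SLC7A6. SLC7A5 (also called LAT1) is the main importer of leucine and other large neutral amino acids in many tumour cells. It ranked 11 among all genes by CPM, and 65 by CPM per kilobase among the genes with a known length. It took between 66.9% and 70.4% of the summed CPM of the 34 transporters in every library. SLC1A5 (ASCT2), an exchanger that brings in glutamine, stood at 113 CPM per kilobase in control cells and 102 with overexpression. SLC38A2 (SNAT2), a sodium-driven carrier of small neutral amino acids, stood at 95 and 101.6 CPM per kilobase. These neighbours were apart in control cells, where SLC1A5 gave 106.3 to 123.4 and SLC38A2 gave 89.6 to 102.5 CPM per kilobase, and overlapped with overexpression, where the ranges were 97.9 to 106.8 and 87.3 to 118.2. SLC38A10 (40.4 and 36.3 CPM per kilobase) and SLC7A6 (32.3 and 39.3) were apart in control cells and overlapped with overexpression, where the mean of SLC7A6 was the higher.

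**Figure D2:**
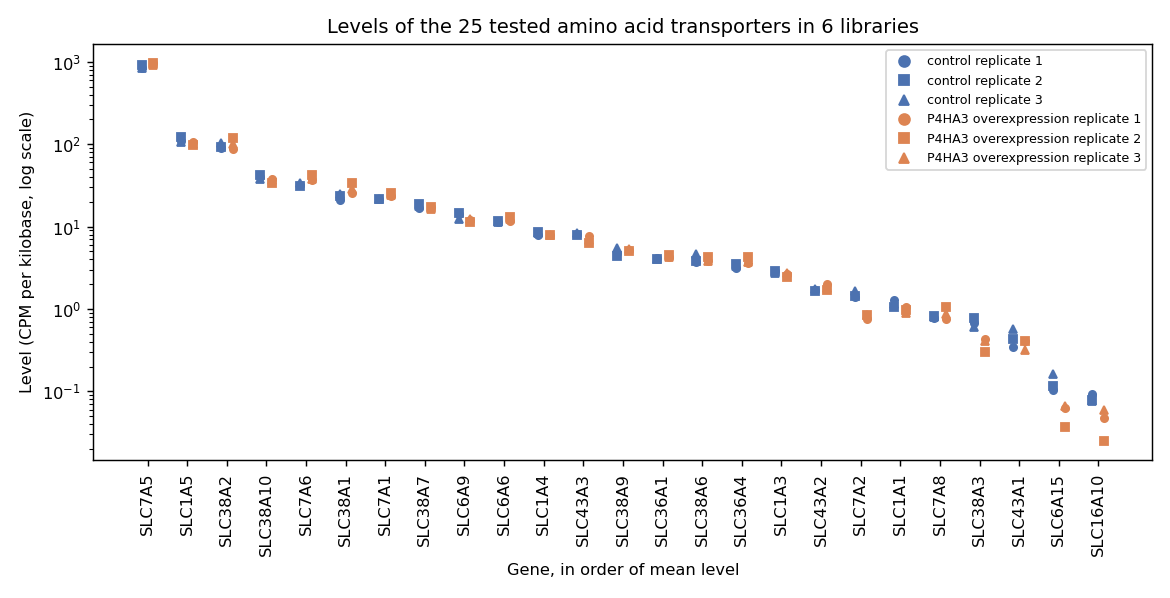
The level of each tested transporter (y axis, CPM per kilobase on a log scale) is plotted for 3 control libraries and 3 P4HA3 overexpression libraries, in order of the mean. SLC7A5 lies above all others in every library at 842 or more, and SLC6A15 and SLC16A10 are at the low end.

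Of the 34 genes, 9 stayed below the filter on low counts and were not tested. SLC3A1, the heavy chain of the cystine and dibasic amino acid exchanger of kidney and gut, and SLC6A14, a broad carrier of neutral and cationic amino acids, had 0 counts in all 6 libraries. A count of 0 allows a level of up to 3 counts, or 0.118 to 0.141 CPM here, for counting error only. The glutamate carriers SLC1A2 and SLC1A6 and the small neutral exchanger SLC7A10 never exceeded 3 counts. SLC38A4 reached 4, SLC7A9 (the partner of SLC3A1) 5, SLC38A5 10 and SLC7A7 14 counts in their highest library.

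The sequences around the start sites of the 3 transporters that rose are shown because ATF4 acts at a C/EBP-ATF response element, whose core was searched as TGATGNAA. The RefSeq promoter table (GRCh38.p14) holds 300 bases for each start, 250 before and 50 after, and 27 of the 34 genes have an entry. Letters in capitals are matches on either strand to TGATGNAA or to the GC-box core GGGCGG, which reads CCGCCC on the other strand, and neighbouring GGGCGG matches can overlap. SLC38A1 has 2 starts in the table, both on the minus strand, at chr12:46266467-46266766 and chr12:46267938-46268237, 3501 and 2030 bases inside the 5′ end of the gene in GENCODE. SLC7A1 is at chr13:29595639-29595938 on the minus strand and SLC7A6 at chr16:68264276-68264575 on the plus strand. SLC7A1 and SLC7A6 were picked for display after their values were seen.
SLC38A1, downstream start: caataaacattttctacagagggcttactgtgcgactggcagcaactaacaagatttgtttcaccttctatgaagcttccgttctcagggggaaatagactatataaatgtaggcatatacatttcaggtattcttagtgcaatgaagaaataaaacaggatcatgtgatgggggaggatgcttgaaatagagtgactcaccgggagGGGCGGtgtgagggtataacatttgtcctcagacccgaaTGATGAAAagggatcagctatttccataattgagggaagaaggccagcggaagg
SLC38A1, upstream start: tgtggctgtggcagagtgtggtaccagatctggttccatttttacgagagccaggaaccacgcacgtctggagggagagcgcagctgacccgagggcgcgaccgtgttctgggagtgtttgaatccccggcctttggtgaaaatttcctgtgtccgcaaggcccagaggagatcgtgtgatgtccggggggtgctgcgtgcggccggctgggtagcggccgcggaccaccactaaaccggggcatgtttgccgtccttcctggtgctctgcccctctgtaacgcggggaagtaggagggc
SLC7A1: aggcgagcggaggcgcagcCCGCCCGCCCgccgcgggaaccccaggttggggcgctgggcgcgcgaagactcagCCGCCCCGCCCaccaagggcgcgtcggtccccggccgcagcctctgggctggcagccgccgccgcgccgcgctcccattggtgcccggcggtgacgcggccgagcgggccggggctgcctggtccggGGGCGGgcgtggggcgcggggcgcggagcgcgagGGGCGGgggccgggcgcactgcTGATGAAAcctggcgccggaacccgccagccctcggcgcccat
SLC7A6: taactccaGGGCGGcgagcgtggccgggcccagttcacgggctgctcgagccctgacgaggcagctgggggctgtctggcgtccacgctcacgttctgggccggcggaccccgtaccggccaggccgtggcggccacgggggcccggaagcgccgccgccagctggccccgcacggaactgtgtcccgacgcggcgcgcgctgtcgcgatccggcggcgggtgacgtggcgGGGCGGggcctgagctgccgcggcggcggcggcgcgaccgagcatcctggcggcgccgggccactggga

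TGATGNAA was present in the downstream promoter of SLC38A1, beginning at position -4 from the start, and in that of SLC7A1, beginning 7 bases after it. It was not in the window of SLC7A6 or of the upstream start of SLC38A1. Nor was it in that of SLC38A2, a gene of the same family without a call, whose sequence is not shown. Over the 47 promoters of the 27 genes it was found in 5 (10.6%), those of SLC1A3, SLC1A4, SLC1A5, SLC7A1 and SLC38A1, beside 3.62% of all 35116 promoters. Of these 5 genes, SLC1A3, SLC1A4 and SLC1A5 had negative log2 fold changes and no call. SLC7A2, SLC38A3 and SLC6A15, the genes called lower, have no entry in the promoter table and were not searched. GGGCGG was in 29 of the 47 promoters (61.7%) beside 45% of all, the E-box CACGTG in 8 (17%) beside 7.26%, and CCAAT in 13 (27.7%) beside 34.6%. A match describes the letters and no site was measured here.

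The cationic amino acid transporters changed in opposite directions. SLC7A2 (ENSG00000003989, chr8:17497088-17570573), known as CAT-2 and a carrier of arginine and lysine, had 10.7, 11.1 and 12.6 CPM in control replicates 1 to 3 and 5.75, 6.36 and 6.43 CPM with overexpression. The 2 groups were well apart, with the highest overexpression library below the lowest control. SLC7A2 thus fell by 1.85-fold, a log2 fold change of -0.89 (SE 0.106, adjusted p = 0.00111 by edgeR). SLC7A1 (ENSG00000139514, chr13:29509414-29595688), known as CAT-1 and the widespread importer of the same amino acids, had 160.6, 159.9 and 157.8 CPM in control cells and 173.4, 187.3 and 178 CPM with overexpression. Its groups were apart as well, by a gap larger than the control range. SLC7A1 rose, with a log2 fold change of 0.17 (SE 0.053, adjusted p = 0.0439 by edgeR).

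Because SLC7A1 was the more abundant of the pair, the fall of SLC7A2 touched a small part of their sum. SLC7A2 made up 6.05%, 6.26% and 7.14% of the summed CPM per kilobase of both genes in control cells and 3.1%, 3.17% and 3.37% with overexpression. With 3 libraries against 3 an exact two-sided permutation test of such a share cannot go below p = 0.1. The call of SLC7A2 was made with any 1 library left out. That of SLC7A1 was made in 1 of 6 such fits, the fit without P4HA3 overexpression replicate 1, with adjusted p between 0.0162 and 0.148.

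**Figure D3:**
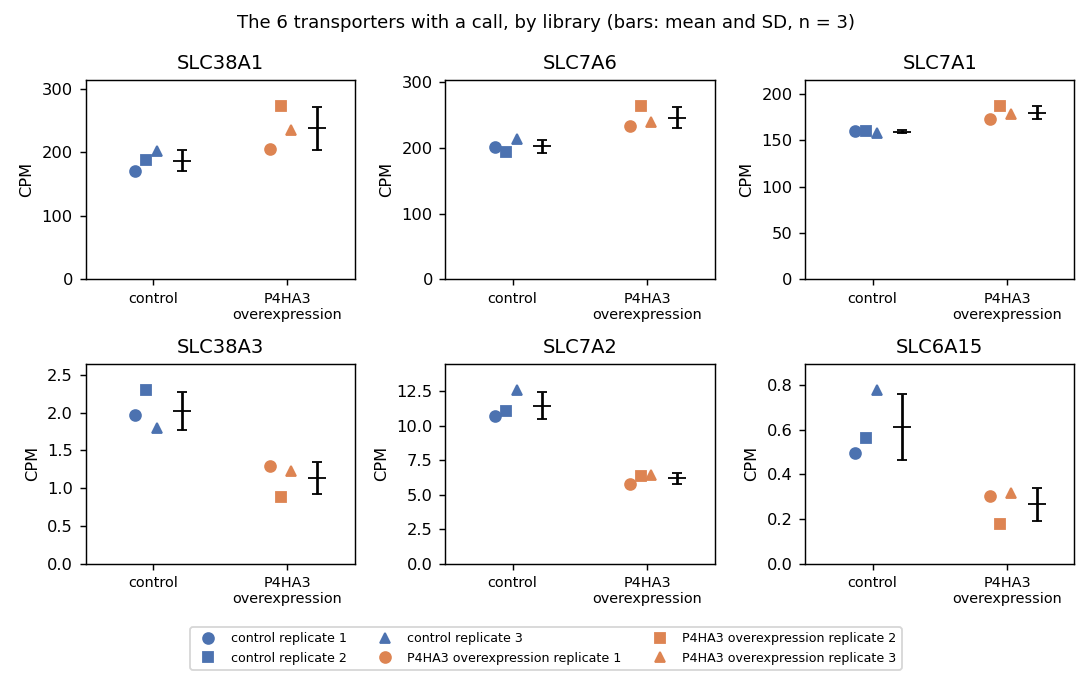
CPM of the 6 called transporters (y axis from 0) is plotted for control and P4HA3 overexpression, 1 point per library, with the mean and SD beside them (n = 3). For each gene the 3 libraries of a group lie on 1 side of the other 3, closely for SLC38A1 (highest control 202 CPM, lowest overexpression 205.6 CPM) and widely for SLC7A2.

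Among the sodium-driven glutamine carriers of the cell surface, SLC38A1 was called and SLC38A2 was not. Their changes were not tested against each other. SLC38A1 (ENSG00000111371, chr12:46183063-46270017), known as SNAT1, had 169.8, 187.9 and 202 CPM in control replicates 1 to 3 and 205.6, 273 and 234.3 CPM with overexpression. P4HA3 overexpression replicate 2 was the highest library and replicate 1 lay just above the highest control. SLC38A1 rose by 1.27-fold, a log2 fold change of 0.35 (SE 0.099, adjusted p = 0.0336 by edgeR). SLC38A2, which lies near SLC38A1 on chromosome 12, had 429.7, 445.4 and 491.7 CPM in control cells and 418.4, 566.7 and 476.5 CPM with overexpression. Its groups overlapped, and the log2 fold change was 0.10 (SE 0.101, adjusted p = 0.5). Within each library SLC38A1 was 19%, 20% and 19.6% of the summed CPM per kilobase of both genes in control cells and 22.5%, 22.2% and 22.6% with overexpression, so that this share, unlike the level of SLC38A2, did not overlap between the groups.

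SLC38A3 (ENSG00000188338, chr3:50205246-50221486), known as SNAT3, carries glutamine, histidine and asparagine and is best known in liver and kidney. It had 48, 49 and 44 counts in control cells and 30, 20 and 31 counts with overexpression, or 1.97, 2.3 and 1.8 CPM against 1.29, 0.889 and 1.22 CPM. All libraries with overexpression were below all controls. Its log2 fold change was -0.82 (SE 0.197, adjusted p = 0.0188 by edgeR), and DESeq2 gave an adjusted p of 0.0506. The call of SLC38A3 was made in 3 of 6 fits with 1 library left out, and that of SLC38A1 in 2 of 6, those lacking control replicate 3 or P4HA3 overexpression replicate 1 (log2 fold change from 0.24 to 0.44 over the 6 fits).

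**Figure D4:**
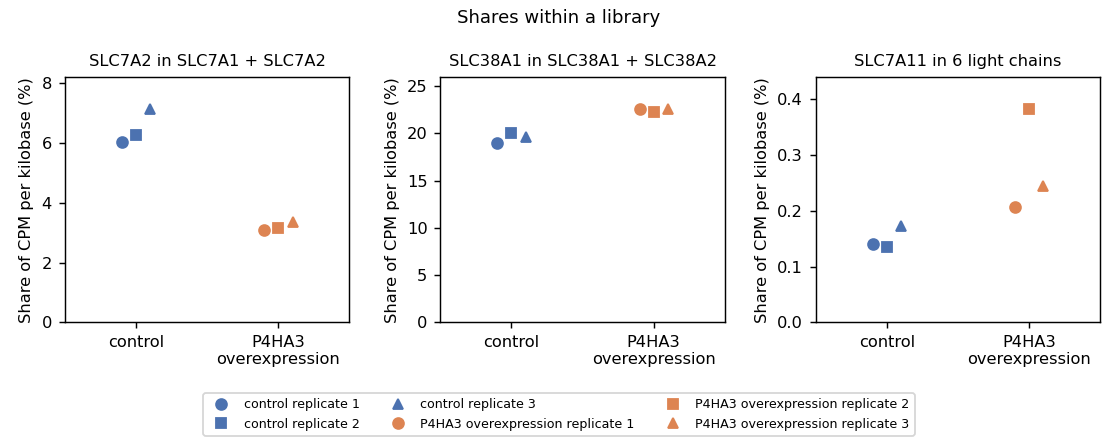
The share of SLC7A2 in SLC7A1 plus SLC7A2, of SLC38A1 in SLC38A1 plus SLC38A2 and of SLC7A11 among 6 light chains of SLC3A2 (y axes, percent of summed CPM per kilobase, from 0) is plotted for each library. Control and P4HA3 overexpression libraries did not overlap in any of the panels, with SLC38A1 at 19% to 20% in control cells and 22.2% to 22.6% with overexpression.

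The heterodimeric exchangers form a disulfide-linked pair of a light chain of the SLC7 family and a heavy chain. SLC7A6 (ENSG00000103064, chr16:68264516-68301823), known as y+LAT2, exports arginine or other cationic amino acids in exchange for neutral ones with sodium. It had 201, 192.9 and 213 CPM in control replicates 1 to 3 and 233.1, 263.8 and 239.7 CPM with overexpression. The groups were apart, with P4HA3 overexpression replicate 2 highest. The log2 fold change was 0.28 (SE 0.064, adjusted p = 0.0165 by edgeR), or 1.21-fold, and it was called in 3 of 6 fits with 1 library left out. Its exons share 3372 of 7588 bases with SLC7A6OS on the opposite strand, and since the strand setting of the counting is not stated, reads of the pair may not be told apart. SLC7A6OS had 53.3 ± 1.27 CPM in control cells and 56.5 ± 0.746 CPM with overexpression (SD, n = 3), with a log2 fold change of 0.08 (adjusted p = 0.306 by edgeR).

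SLC7A5 had 3883, 4211 and 3836 CPM in control cells and 4419, 4407 and 4157 CPM with overexpression. Only control replicate 2 and P4HA3 overexpression replicate 3 overlapped, and the log2 fold change was 0.12 (SE 0.070, adjusted p = 0.223 by edgeR). SLC7A8 (LAT2), which carries a broader range of neutral amino acids, had 3.39 ± 0.121 CPM (SD, n = 3) against 3.76 ± 0.641 CPM, and its change of 0.15 did not pass the test (adjusted p = 0.47). All 3 tested light chains among the 34 thus had positive values, and SLC7A6 alone passed the test.

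The light chain SLC7A11 and the heavy chain SLC3A2 are not among the 34 genes but complete the family. SLC3A2 had 1204 ± 66.9 CPM in control cells and 1221 ± 85.5 CPM with overexpression (SD, n = 3), with a log2 fold change of 0.02 (adjusted p = 0.857). SLC7A11, the cystine importer, had 13.1 ± 1.42 and 26.7 ± 9.35 CPM with a log2 fold change of 1.03 (SE 0.204, adjusted p = 0.00958). With the GC and length trends removed, SLC7A11 (35.4% GC) stood at 0.69 (adjusted p = 0.00104 by edgeR). Its call was made in 5 of 6 fits with 1 library left out, with log2 fold changes from 0.71 to 1.2. Among the 6 light chains that pair with SLC3A2, SLC7A5 made up 95.4% to 96.5% of the summed CPM per kilobase in every library and SLC7A11 0.136% to 0.173% in control cells and 0.207% to 0.383% with overexpression. The light chains summed to 1.4, 1.42 and 1.45 times the level of SLC3A2 in control replicates 1 to 3 and to 1.47, 1.55 and 1.59 times with overexpression.

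Among the sodium- and chloride-coupled SLC6 carriers, 1 of 3 tested genes was called, beside 20.8% of all tested genes in either direction. SLC6A15 (ENSG00000072041, chr12:84859491-84913629), a carrier of branched-chain amino acids and proline best known in brain, had 12, 12 and 19 counts in control cells and 7, 4 and 8 counts with overexpression. Those counts correspond to 0.493, 0.563 and 0.776 CPM against 0.301, 0.178 and 0.315 CPM. It passed the filter on low counts through the control libraries alone, so a higher control level was a condition of being tested, and its log2 fold change of -1.18 (SE 0.352, adjusted p = 0.0394 by edgeR) is given as a value only. DESeq2 gave it no adjusted p, and it was called in 1 of 6 fits with 1 library left out. SLC6A6, the taurine carrier, had 74.3 ± 0.664 CPM in control cells and 79.9 ± 4.82 CPM with overexpression (SD, n = 3). The log2 fold change of SLC6A6 was 0.11 (adjusted p = 0.22 by edgeR) and that of SLC6A9, the glycine carrier GlyT1, was -0.21 (adjusted p = 0.0875), each with groups that did not overlap.

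All 4 tested SLC1 carriers had negative values and 0 were called, beside 20.8% of all tested genes in either direction. With the GC and length trends removed SLC1A5 turned to a positive 0.07 (adjusted p = 0.307). SLC1A5 had 317.7, 355.5 and 306.5 CPM in control cells and 307.7, 282.1 and 292.1 CPM with overexpression. The lowest control lay just below the highest overexpression library, and the log2 fold change was -0.15 (SE 0.067, adjusted p = 0.125 by edgeR, unadjusted p = 0.0477). SLC1A4 (ASCT1), an exchanger of alanine, serine and cysteine, changed by -0.08 on the log2 scale (adjusted p = 0.396). The glutamate and aspartate carriers SLC1A1 and SLC1A3 gave -0.29 (adjusted p = 0.132) and -0.13 (adjusted p = 0.323), with no overlap of the groups for SLC1A1 (84 to 117 counts in control cells, 80 to 90 with overexpression, before normalization).

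The SLC38 carriers of lysosomes and other sites and the proton-coupled SLC36 carriers had 0 calls among 6 tested genes, beside 20.8% of all tested genes. SLC38A10, the most abundant of them, had 181.3, 191.5 and 171.5 CPM in control cells and 171.4, 151 and 167 CPM with overexpression. The groups just missed each other, and the log2 fold change was -0.15 (SE 0.066, adjusted p = 0.114 by edgeR). SLC38A9, the lysosomal arginine sensor of mTORC1, had 12.3 ± 1.36 CPM (SD, n = 3) against 13.1 ± 0.367 CPM, and SLC38A7, a lysosomal exporter of glutamine, had 71.8 ± 3.36 against 69.3 ± 1.94 CPM. Neither log2 fold change, 0.09 (adjusted p = 0.518) and -0.05 (adjusted p = 0.553), passed the test. SLC38A6 gave -0.03 (adjusted p = 0.898). Both SLC36 carriers had higher values with overexpression in all 3 libraries, SLC36A4 by 0.22 (SE 0.089, adjusted p = 0.0962) and the lysosomal SLC36A1 by 0.08 (SE 0.070, adjusted p = 0.402). With the GC and length trends removed the sign turned for SLC36A4 (-0.06), SLC38A9 (-0.06), SLC38A7 (0.08) and SLC38A10 (0.07), none of which was called.

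The facilitative carriers move amino acids down their gradient, and 0 of 4 were called, beside 20.8% of all tested genes. SLC16A10 (TAT1), a carrier of aromatic amino acids, had 24, 18 and 20 counts in control cells and 12, 6 and 16 counts with overexpression. The groups were apart, and the log2 fold change was -0.88 (SE 0.303, adjusted p = 0.0617 by edgeR). SLC43A1 (LAT3) and SLC43A2 (LAT4), carriers of branched-chain amino acids and phenylalanine, gave -0.25 (adjusted p = 0.466) and 0.11 (adjusted p = 0.407). SLC43A3, a member of the same family known to carry purine nucleobases, gave -0.23 (adjusted p = 0.0841) with groups apart.

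Across all genes the log2 fold change followed GC content, with a Spearman's rho of -0.581 over 15107 genes that are not independent replicates, while over the 25 transporters rho was -0.088. With trends on GC content and transcript length removed from each library, 4 transporters were higher (beside 10.6% of all genes) and 5 lower (beside 7.94%). The calls of SLC7A2 (-1.08), SLC7A6 (0.21), SLC7A1 (0.19) and SLC38A3 (-0.65) were still made. SLC6A15 stood at -1.40 and is 1 of the 5 lower. It was tested only through its control libraries and adds nothing to that count. SLC7A5, of high GC content (61.2%), was called higher at 0.32 (adjusted p = 0.00117), SLC38A2, of low GC content (37.4%), lower at -0.14 (adjusted p = 0.0301), and SLC16A10 lower at -1.12 (adjusted p = 0.0401). SLC38A1 (41.3% GC) kept a positive sign with a log2 fold change of 0.14 (adjusted p = 0.0382), which was not called when the trends were centred on 0 (adjusted p = 0.064), where 3 transporters were higher and 5 lower beside 9.23% and 9.29% of all genes. The difference between the log2 fold changes of SLC38A1 and SLC38A2 was 0.25 before and 0.29 after the correction, a description with no test of its own. SLC3A2 stood at 0.20 (adjusted p = 0.022) after it.

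**Figure D5:**
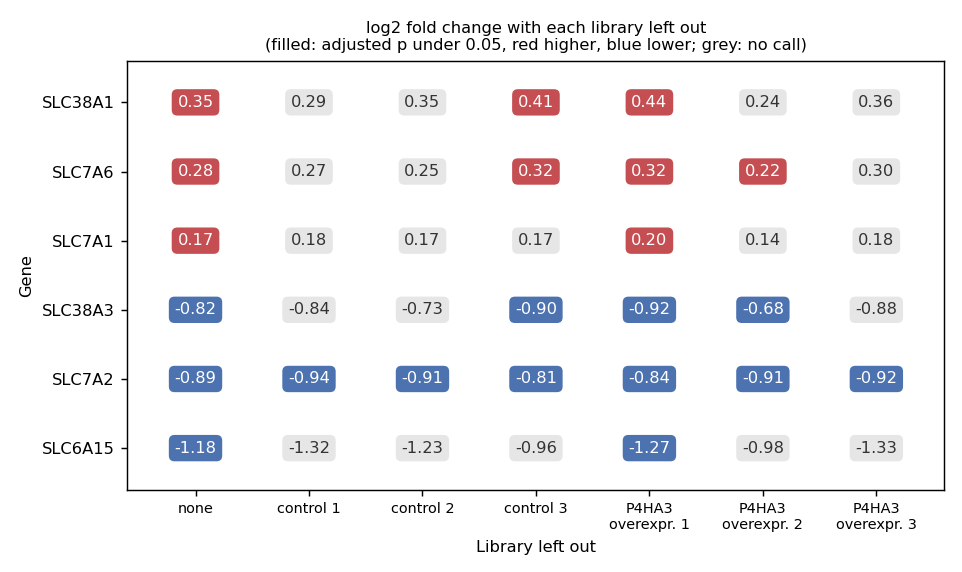
The log2 fold change of each called transporter is given with all libraries (none) and with each library left out, and a box is filled where the adjusted p was under 0.05 (red higher, blue lower, grey no call). SLC7A2 is filled in every column, between -0.94 and -0.81, and in the columns of control 1, control 2 and P4HA3 overexpression 3 it is the only one.

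The number of calls depended on the libraries used. With control replicate 1 left out, 0 transporters were higher (beside 1.49% of all genes) and 1 lower (beside 3.6%), with control replicate 2 left out 0 (beside 1.06%) and 1 (beside 2.41%), and with P4HA3 overexpression replicate 3 left out 0 (beside 1.79%) and 1 (beside 4.1%). The single gene was SLC7A2 each time. Lacking P4HA3 overexpression replicate 2, SLC7A6 was higher (beside 5.75% of all genes) and SLC7A2 and SLC38A3 were lower (beside 8.59%). Lacking control replicate 3, SLC7A6 and SLC38A1 were higher (beside 9.08%) and SLC7A2, SLC38A3 and SLC6A9 lower (beside 11.7%). Lacking P4HA3 overexpression replicate 1, 4 transporters were higher (beside 18.3%) and 5 lower (beside 17.6%), and SLC36A4, SLC38A10 and SLC43A3 joined the genes called. With all libraries, limma-voom gave the same 3 and 3 calls (beside 8.9% and 11.3%). DESeq2 made the same 3 higher calls (beside 11.8%) and called SLC7A2 alone lower (beside 12.2%). SLC6A15 is among the lower genes by limma-voom and in the fit lacking P4HA3 overexpression replicate 1, and adds nothing to either count.

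Genes around the transporters showed calls in both directions, to be read beside the 9.36% of all tested genes called higher and the 11.4% called lower (10.6% and 7.94% with the GC and length trends removed). Among 7 tested of 21 other amino acid transporters, 1 was higher (SLC7A11) and 1 lower, SLC6A17, a carrier of neutral amino acids in synaptic vesicles, at -0.50 (adjusted p = 0.00354 by edgeR), with a median log2 fold change of -0.013. With the GC and length trends removed, 4 of these 7 were higher and 1 lower, and the median was 0.205. Of 11 tested mitochondrial amino acid carriers 0 were higher and 1 was lower, the sideroflexin SFXN3 at -0.32 (adjusted p = 0.0129), with a median of -0.037. With the trends removed 1 was higher and 2 were lower.

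Of 32 tested genes of amino acid sensing by mTORC1, 3 were higher and 4 lower, with a median log2 fold change of -0.041. The 7 calls compare with 20.8% of all tested genes called in either direction, and with the GC and length trends removed 5 were higher and 3 lower. Among the called genes, the largest rises were SEH1L, a subunit of the GATOR2 complex, at 0.27 (adjusted p = 0.0231 by edgeR) and LARS1, the leucyl-tRNA synthetase, at 0.21 (adjusted p = 0.0278). The largest falls among them were LAMTOR4, a subunit of the Ragulator complex of the lysosome, at -0.47 (adjusted p = 0.0118) and the arginine sensor homologue CASTOR2 at -0.34 (adjusted p = 0.0396).

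The amino acid response list, with ATF4 and its targets, had 3 higher and 3 lower among 19 tested genes and a median of -0.047, beside 9.36% and 11.4% of all tested genes, and 4 higher and 2 lower with the GC and length trends removed. DDIT3, which encodes the stress factor CHOP, rose by 0.46 on the log2 scale (adjusted p = 0.0172 by edgeR) and STC2, a secreted glycoprotein, by 0.41 (adjusted p = 0.0123). DDIT4, an inhibitor of mTORC1 signalling, gave -0.75 (adjusted p = 0.000664) and CEBPB, a transcription factor, -0.41 (adjusted p = 0.00576). ATF4 mRNA had 223.4 ± 7.86 CPM (SD, n = 3) against 217.9 ± 5.56 CPM (adjusted p = 0.641), and the target ASNS, asparagine synthetase, had only 3 to 11 counts per library and was not tested.

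Of 12 tested genes of glutamine and glutamate use, 3 were higher and 2 lower, with a median of 0.074, beside 9.36% and 11.4% of all tested genes. With the GC and length trends removed, 1 was higher and 2 were lower. GFPT1, which spends glutamine on hexosamines, rose by 0.36 on the log2 scale (adjusted p = 0.0121 by edgeR), while GLS2, the liver-type glutaminase, gave -0.52 (adjusted p = 0.0235) and GLUL, glutamine synthetase, -0.22 (adjusted p = 0.0435). In the same corrected fit, GFPT1 stood at 0.10 (adjusted p = 0.29), OAT, ornithine aminotransferase, at 0.08 (adjusted p = 0.297), LARS1 at 0.06 (adjusted p = 0.52), CASTOR2 at -0.24 (adjusted p = 0.111) and CEBPB at -0.12 (adjusted p = 0.0751).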

How the data were processed

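According to the study's methods, the authors selected poly-A RNA, built dUTP strand-specific libraries and sequenced paired ends on a DNBSEQ-T7. Reads were aligned to GRCh38 with STAR and counted per gene with HTSeq, whereas the submitters' processing notes name HISAT2. Strand setting, treatment of multiply mapped reads and tool versions are not given in the sources used here. The deposited values are raw counts per gene for 6 libraries.

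In R 4.3.3, genes were filtered with filterByExpr (minimum count 10), normalized by TMM and tested with the two-sided quasi-likelihood test of edgeR 4.0.16, with Benjamini-Hochberg adjustment over all 15130 genes tested. CPM was computed from the counts with TMM factors of 0.98 to 1.02. Standard errors are the log2 fold change divided by the root of F. Symbols, positions and lengths came from GENCODE release 44, a later annotation than the authors', which matched 60463 of 60664 identifiers. The common biological coefficient of variation was 7.66%, and replicates differed by more than sampling noise. Intervals and floors cover counting error only. Alternatives were DESeq2 1.42.0, limma-voom (limma 3.58.1), other normalizations and filters, the replicate number as a block, GC and length trends fitted per library (mgcv 1.9.3) as an offset, an adjusted p under 0.01 and each library left out. Centring those trends was added after seeing the data. The test was checked on simulated counts with known changes in 200 genes. It recovered 85% of the 2-fold and 60% of the 1.4-fold changes, and 7.05% of its calls were false. Changes smaller than 1.4-fold were not simulated, nor was a trend on GC content. The 200 changed genes were fewer than the genes called in the real data, so these shares need not hold for the real calls.

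The members and lists were chosen with earlier results of these data known. All 34 transporters are named. Values per library are given for called genes and for the 5 highest per kilobase, and from each list up to 2 called genes per direction. The values of 1 list gene are not reported here. SLC16A10, the marker genes of the identity check (epithelial, smooth muscle, fibroblast, endothelial and leukocyte), ATF4, ASNS and OAT were also named after their values were seen. Promoters came from RefSeq (GRCh38.p14).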

Additional observations from a re-analysis of the deposited data

How the results depend on the processing

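SLC7A2 was called lower under every alternative, the adjusted p under 0.01 included. No called transporter changed sign in any alternative, and 361 of the 420 comparisons of single transporters kept direction and side of the threshold. The count of higher transporters, 3 with all libraries, was 5 with the replicate block and the GC correction together (beside 14.1% of all genes). It was 0 at an adjusted p under 0.01 (beside 1.46%). That of lower transporters, also 3, was 1 by DESeq2 (beside 12.2% of all genes), which gave 3 transporters no adjusted p. It was 5 with the GC correction (beside 7.94%), 5 with the centred one (beside 9.29%) and 6 with block and correction together (beside 11%). SLC6A15 is among the lower genes in each of these corrected fits. At an adjusted p under 0.01 the count was 1 (beside 3.35%). Leaving out 1 library gave 0 to 4 higher and 1 to 5 lower transporters, beside 1.06% to 18.3% and 2.41% to 17.6% of all genes. With control replicate 1, control replicate 2 or replicate 3 of overexpression left out there were 0 higher and 1 lower. Without P4HA3 overexpression replicate 2 there were 1 and 2, and without P4HA3 overexpression replicate 1 there were 4 and 5, SLC6A15 among the 5. All genes called higher, 1416 with all libraries, numbered 2384 with no filter on low counts and 221 at an adjusted p under 0.01, and 163 to 2814 with 1 library left out. All genes called lower, 1731 with all libraries, numbered 507 at an adjusted p under 0.01 and 371 to 2716 with 1 library left out. The cause of these differences was not tested.

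The correlations of deviations between same-numbered libraries were 0.25, -0.049 and 0.03. Those between differently numbered libraries ran from -0.302 to 0.268, so these values cannot tell whether the replicate numbers pair the libraries. The replicate block gave 2138 higher genes, 2136 with the GC correction, and 2 higher and 4 lower transporters (beside 14.1% and 14.4% of all genes), with SLC7A1 not called (adjusted p = 0.0623) and SLC16A10 called. SLC6A15 is among the 4 lower. The share of calls that were higher over all genes was 45% with all libraries, 57.1% with the GC correction and 49.8% with the centred one.

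Signs turned for 6 transporters without a call in the uncorrected fit. With the GC correction, the centred one, and block and correction together, the log2 fold changes were 0.0662, 0.0527 and 0.0672 for SLC1A5, -0.141, -0.154 and -0.141 for SLC38A2, 0.0762, 0.0627 and 0.0762 for SLC38A7, -0.059, -0.0727 and -0.0558 for SLC38A9, 0.0746, 0.0609 and 0.0742 for SLC38A10 and -0.061, -0.0744 and -0.0602 for SLC36A4. With 1 library left out, SLC38A2 ranged from -0.027 to 0.196 and SLC38A6 from -0.0905 to 0.0973. Depth limits SLC6A15, SLC16A10, SLC43A1 and SLC38A3, with at most 49 counts per library.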

Other observations

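P4HA3 overexpression replicate 2 was the library farthest from control, in the direction of the group difference, for 17 of the 25 tested transporters (68%), beside 57.8% of all 15130 tested genes. Replicate 1 was the farthest for 3 and replicate 3 for 5 transporters. For SLC38A1, replicate 2 had 273 CPM beside 205.6 and 234.3 CPM in replicates 1 and 3, for SLC38A2 566.7 beside 418.4 and 476.5 CPM, and for SLC7A11 37.4 beside 20.2 and 22.6 CPM.

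Without SLC7A5, the 34 transporters summed to 1817, 1902 and 1903 CPM in control replicates 1 to 3 and to 1860, 2080 and 1936 CPM with overexpression, so that these sums overlapped. With SLC7A5 the sums were 5700, 6113 and 5739 CPM in control cells and 6279, 6487 and 6093 CPM with overexpression, where control replicate 2 lay above the lowest library with overexpression.

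ACTG2, a smooth muscle actin, was uneven within both groups. Its counts were 0, 1 and 30 in control replicates 1 to 3 and 40, 1 and 44 with overexpression, with the low libraries control replicates 1 and 2 and overexpression replicate 2. MYH11, the smooth muscle myosin, had 2, 1 and 9 counts in control cells and 7, 1 and 3 with overexpression, and DES, desmin, had 1, 1 and 6 and 2, 0 and 8 counts, so that both reached their highest counts in libraries where ACTG2 was high. SYNPO2 and MYOCD had at most 16 and 10 counts.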
